A study of Homo sapiens with 82 samples.

Results

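PPARG binding was followed in HT29 cells, a human colorectal adenocarcinoma cell line, by comparing cells that had received 10 μM rosiglitazone for 2 h with cells that had received it for 48 h. The members are the 4 ChIP-seq peak lists of PPARG, with 2 replicates at each time, chosen by the labels of the libraries. They are 4 of the 82 samples of the series and hold 64154 of the 813345 peaks in its 34 peak lists. All of these cells were wild-type HT29 cells from 1 line, so replicates do not stand for different tumours, and nothing in the labels says that the ChIP-seq replicates came from separate cultures. The p-values over libraries therefore measure only the spread between these samples, which may be technical. The peaks were set beside those of JunD in cells given the solvent DMSO, and of H3K27ac and RNA polymerase II (RNAP2) in cells given DMSO or 10 μM rosiglitazone for 24 or 48 h, with 2 replicates each. The labels give no hour for these DMSO libraries. RNA-seq in quadruplicate covered DMSO and 10 μM rosiglitazone at 24 and 48 h. Libraries of 10 μM GW3965 and 10 μM T0901317, both LXR agonists, entered the RNA-seq fits, and LXRB ChIP-seq after 2 and 48 h of 10 μM GW3965 is set beside PPARG once. No PPARG library of DMSO-treated cells was analysed here, so binding before the drug is not known from these data.

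PPARG is a nuclear receptor that binds DNA as a heterodimer with a retinoid X receptor and is activated by fatty acids and by thiazolidinediones such as rosiglitazone. With a ligand bound it exchanges corepressors for coactivators, some of which acetylate histones, and its best known targets are genes of lipid storage, fatty acid transport and fatty acid oxidation. H3K27ac, acetylation of lysine 27 of histone H3, marks active enhancers and promoters, and RNAP2 occupies promoters, transcribed genes and many active enhancers. JunD is a subunit of AP1, a leucine zipper factor found at many enhancers of epithelial cells.

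PPARG lists were shorter at 48 h than at 2 h. The 2 h libraries held 24039 and 15804 peaks and the 48 h libraries held 15378 and 8933. The groups did not overlap, but 2 h replicate 2 and 48 h replicate 1 were separated by far less than the replicates of either time. The means were 19921.5 ± 5823.02 and 12155.5 ± 4557.3 peaks (SD, n = 2 each), and an exact permutation test gave a two-sided p of 0.333, the smallest value that 2 against 2 libraries allow. Peaks covered 19.8 and 13.5 Mb at 2 h and 16.5 and 7.79 Mb at 48 h, and these groups overlapped. Peaks were wider at 48 h in these lists, with a median width of 724 and 758 bp at 2 h and of 939 and 783 bp at 48 h. At the 8933 highest-scoring peaks of each library the widths were 923 and 856 bp at 2 h and 1100 and 783 bp at 48 h, and the groups overlapped.

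The score of a peak is minus 10 times the log10 of the p that the peak caller gave it, so it rises with the depth of a library as well as with binding. Its lowest value was 100. Median scores were 257.96 and 247.475 at 2 h and 249.71 and 237.6 at 48 h, with overlapping groups. Scores of at least 1000 were given to 3446 and 1872 peaks at 2 h and to 1926 and 886 at 48 h, again with overlap. The depth of these libraries is unknown here, and the track lines name 2 input libraries for the 2 h lists and 1 for both 48 h lists. No input is shared by the 2 times, so the time of treatment and the input used cannot be told apart.

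**Figure D1:**
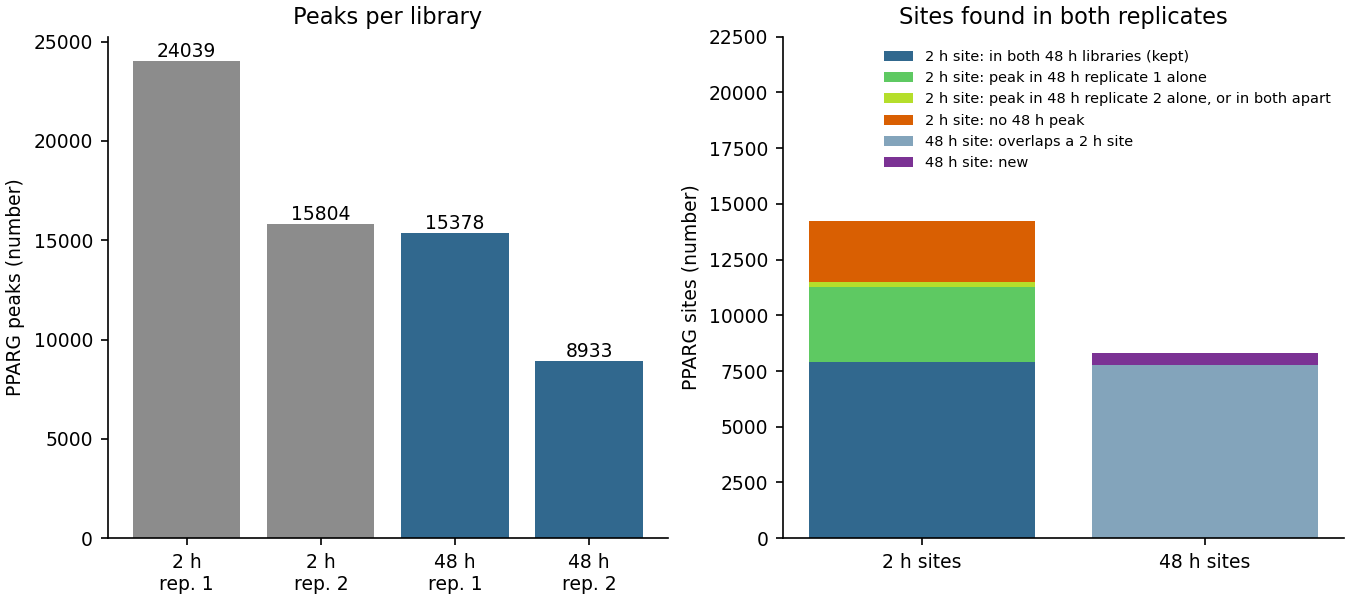
Left, number of PPARG peaks in each of the 4 libraries, in bars that start at 0. Right, number of sites found in both replicates of a time, stacked by whether they overlap a site of the other time: 7921 of the 14249 sites at 2 h do, and 7754 of the 8317 sites at 48 h.

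The strongest peaks were shared by all 4 libraries. Of the 1000 highest-scoring peaks of each library, at most 3 had no peak in any other given library. Whole lists differed more. As deposited, between 54.2% and 94.7% of the peaks of a library overlapped a peak of the other replicate, and between 36.05% and 97.1% overlapped a peak of a library of the other time, depending on which list was longer. When each library was reduced to its 8933 highest-scoring peaks, the ranges separated. Replicates then shared 80.1% to 81.6% of their peaks and libraries of different times shared 75.3% to 78.2%, with medians of 80.5% and 76.1%. Libraries of different times were therefore less alike than replicates in these equal lists, with 4.37 percentage points between the medians. Each time gave a single pair of replicates, counted in both directions, and time cannot be told apart from the input used. Among the 500 highest-scoring peaks of each library, the lists hold mostly peaks that every library found at some score. Replicates there shared 70.2% to 80.4% and times shared 63.8% to 70.8%, and these ranges overlapped.

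A site was a stretch where peaks from each replicate of a time met by 1 bp or more, taken over the full length of those peaks. There were 14249 sites at 2 h and 8317 sites at 48 h. Of the 2 h sites, 7921 (55.6%) overlapped a 48 h site and are called kept here, and 6328 (44.4%, Wilson 95% interval 43.6% to 45.2%) did not and are called lost. The word lost covers a site that missed the limit in only 1 of the 48 h libraries. Most lost sites were of this kind: 3364 had a peak in 48 h replicate 1 alone, 208 had one in replicate 2 alone and 2 had peaks in both that did not overlap each other. The remaining 2754 sites, 19.3% of the 2 h sites (18.7% to 19.98%), had no peak in either 48 h library. New sites were rare. Of the 48 h sites, 563 (6.77%, 6.25% to 7.33%) did not overlap a 2 h site, and 82 of these (0.986%) had no peak in either 2 h library.

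These shares follow the length of the lists. With the 8933 highest-scoring peaks of each library, there were 7157 sites at 2 h and 7148 at 48 h. Of these, 20.1% of the 2 h sites were lost and 21.0% of the 48 h sites were new. Near-equal numbers of sites fix losses and gains at like shares, so this likeness is not a result about binding. Without 48 h replicate 2, the shortest list, 20.8% of the 2 h sites were lost and 27.5% of the 48 h sites were new. Without 2 h replicate 2, the 24039 peaks of 2 h replicate 1 gave a lost share of 64.6% and a new share of 1.55%. The excess of losses over gains in the lists as deposited goes with their unequal number of peaks. Whether that number reflects binding or depth was not tested.

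A further comparison, added after these values had been seen, used the pair of lists that were alike in length. 2 h replicate 2 and 48 h replicate 1 were each taken at their 15378 highest-scoring peaks, and the 24039 peaks of 2 h replicate 1 were looked up in both. Of these peaks, 41.5% were missing from 2 h replicate 2 and 41.9% were missing from 48 h replicate 1. Over all scores, a library of the other time thus missed about as large a share as the replicate of the same time did. The sets missed were not the same: 2835 peaks (11.8%) were found at 2 h and missed at 48 h, and 2739 (11.4%) were found at 48 h and missed at 2 h. Read the other way, 2 h replicate 1 held 91.5% of the peaks of 2 h replicate 2 and 88.6% of those of 48 h replicate 1. Widths were not matched, with medians of 758 bp in 2 h replicate 2 and 939 bp in 48 h replicate 1 as deposited.

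Loss followed the rank of a site at 2 h. Sites were ranked by their mean score percentile within the 2 h libraries and divided into 5 quintiles of like size. From the lowest to the highest quintile, 87.2%, 69.5%, 47.2%, 17.1% and 0.982% of the sites were lost. The share with no peak in either 48 h library was 51.7%, 28.6%, 13.1%, 3.09% and 0.211%. Nearly all strong 2 h sites were thus found again at 48 h. A like gradient was seen within 2 h. Peaks of 2 h replicate 1 were divided by score in the same way and looked up in the lists of like length. From the lowest to the highest quintile, 82.7%, 68.3%, 43.8%, 12.1% and 0.395% were missing from 2 h replicate 2. Missing from 48 h replicate 1 were 80.2%, 66.7%, 44.2%, 16.9% and 1.39%. A gradient of this kind is thus not particular to the change of time. The 48 h list missed more of the fourth and highest quintiles than the 2 h list did, and fewer of the first and second. Median scores in the 2 h libraries were 844.57 and 506.8 at kept sites, 264.61 and 171.9 at lost sites, and 214.19 and 152.525 at lost sites with no 48 h peak. Widths followed the same order, with medians of 956, 771 and 721.5 bp. New sites were low at 48 h in the same way, with a median score of 198.13 in 48 h replicate 1 and a new share of 23.7% in the lowest quintile of 48 h sites and 0.0601% in the highest.

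Kept sites lay closer to other sites. The next 2 h site was within 10 kb for 42.6% of the kept sites, 36.1% of the lost sites and 33.0% of the lost sites with no 48 h peak, at a median distance of 15.4, 20.3 and 24.7 kb. The lost share ranged by chromosome from 39.1% on chromosome 13 to 54.5% on chromosome 22.

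Among kept sites, ranks were similar at both times. The Spearman correlation of scores, given as a description across sites that share libraries, was 0.800 between the 2 h replicates over 14249 sites and 0.826 between the 48 h replicates over 8317 sites. Over kept sites it was 0.840 and 0.816 between replicates and 0.721 to 0.748 between libraries of different times. The mean score percentile of the 7842 kept sites with a score in all 4 libraries changed by a median of −8.70 points, and 2008 of them fell by at least 20 points while 130 rose by as much. A percentile is taken within each library, and the same site ranks lower in a list that has fewer weak peaks below it.

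Single sites show the range, with positions in build hg19. The strongest kept site, chr7:92324486-92325749, had scores of 3212.89 and 3225.28 at 2 h and of 3100 and 2290.01 at 48 h. It overlapped JunD and it carried H3K27ac and RNAP2 before and after the drug. The site next in score, chr12:13543034-13544166, had 3230.05 and 3161 at 2 h and 2176.73 and 1702.67 at 48 h. It had no JunD, and it had no H3K27ac site in DMSO but had one at 24 and 48 h of rosiglitazone. Both sites stayed among the strongest few percent of every library. The other 2 kept sites of highest score, chr2:164066706-164067804 and chr13:20772493-20773668, ranged in score from 3100 to 3233.06 at 2 h and from 1999.3 to 3100 at 48 h.

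The strongest 2 h site with no 48 h peak, chr2:157912394-157913361, had scores of 1567.17 and 1083.52 at 2 h. It overlapped JunD, and it had an RNAP2 site in DMSO but none at 24 or 48 h. The other 3 of this kind were chr11:68147582-68149110 with 1374.45 and 750.34, chr10:94949628-94950485 with 1705.78 and 266.82, and chr1:31922446-31923256 with 1027.8 and 933.44. None of these 3 overlapped JunD. Their 2 h scores lay far above the median of their class, and such sites were few, since 94 of the 2754 were in the upper 2 quintiles.

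Among kept sites, the steepest fall in rank was at chr2:80426304-80427353, where scores of 917.6 and 533.79 at 2 h were followed by 100.34 and 117.69 at 48 h. Its mean percentile fell by 73.5 points. At chr11:12243413-12244543 scores of 3087.49 and 1284.2 were followed by 182.55 and 121.94. Both sites were in the upper quintiles at 2 h and still passed the limit in both 48 h libraries. The other 2 of the 4 steepest falls were at chr15:69886426-69888285 and chr21:46867569-46869443. The steepest rise was at chr20:4693919-4694594, from 160.64 and 108.16 to 567.66 and 331.03, or 52.7 points. The strongest new site with no 2 h peak, chr15:59483452-59484648, had scores of 445.12 and 327.53 at 48 h. It overlapped JunD, and it had neither H3K27ac nor RNAP2 sites in DMSO and both at 24 and 48 h. A new site had to be absent from longer lists than a lost site, so the scores of the strongest new and lost sites are not comparable.

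JunD occupied 34.0% of the 2 h sites (33.2% to 34.7%) and 38.9% of the 48 h sites. When the 2 h sites were shifted by 100 kb, 1.64% overlapped JunD. The JunD libraries came from cells without the drug, so this overlap describes where JunD was before PPARG was activated. Per library, 26.4% and 32.3% of the 2 h peaks and 36.1% and 37.4% of the 48 h peaks overlapped a JunD site. These groups did not overlap (two-sided p = 0.333, exact permutation test, n = 2 each). At the 8933 highest-scoring peaks the shares were 38.6% and 40.1% at 2 h and 44.3% and 37.4% at 48 h, and the groups overlapped. A rise in the JunD share from 2 to 48 h thus held for the lists as deposited and not for equal lists. Read from JunD the direction was the reverse. Of the 8960 JunD sites, 52.4% held a 2 h PPARG site and 35.8% held a 48 h site, with fewer PPARG sites at 48 h.

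Kept and lost sites differed more. JunD occupied 40.4% of the kept sites (39.3% to 41.5%), 25.9% of the lost sites (24.8% to 26.98%) and 13.8% of the lost sites with no 48 h peak (12.5% to 15.1%). Read the other way, 33.8% of the 2 h sites with JunD were lost, against 49.8% of those without it, and 7.83% against 25.2% had no 48 h peak. Since JunD overlap also rose with score, from 21.7% in the lowest quintile of 2 h sites to 49.4% in the highest, the classes were compared within quintiles. Between kept and lost sites little difference was left in the middle of the range, with 26.5% and 26.8% in the second quintile and 34.7% and 31.3% in the third, where intervals overlapped. Sites with no 48 h peak overlapped JunD in 13.8%, 13.7%, 13.7% and 13.6% of cases in the first to the fourth quintile (n = 1473, 815, 372 and 88). Kept sites overlapped it in 28.3%, 26.5%, 34.7% and 39.97%. The share at sites with no 48 h peak did not rise with score, and its intervals did not overlap those of kept sites in any of these 4 quintiles.

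**Figure D2:**
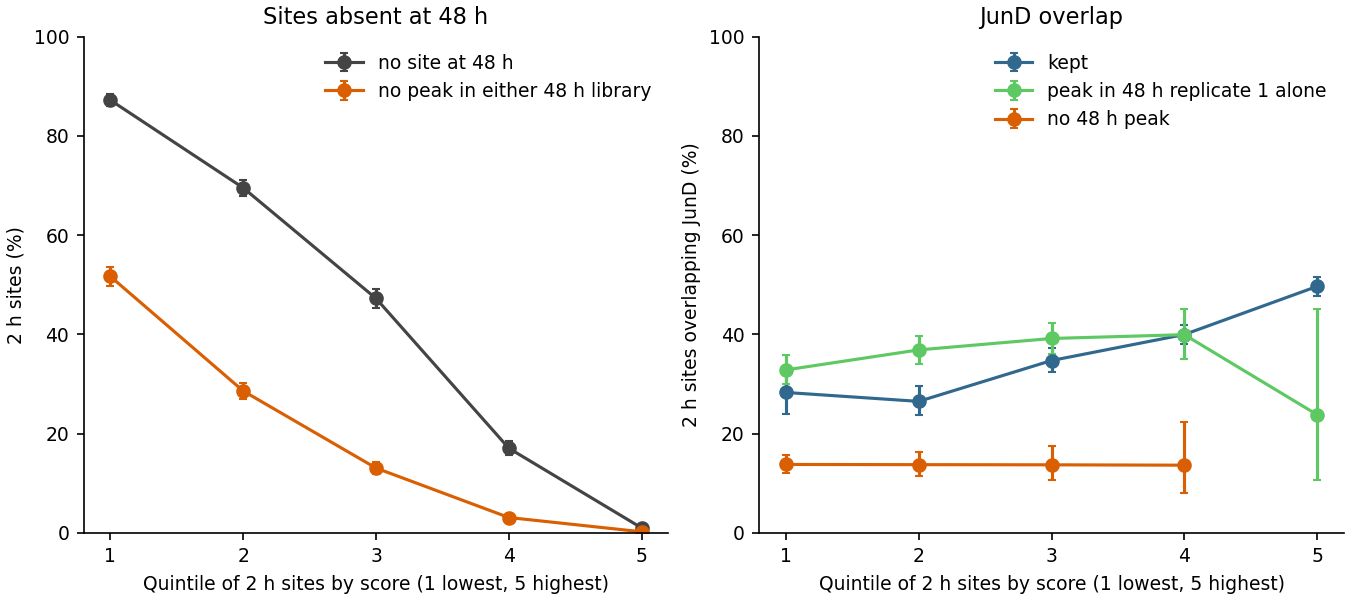
Left, percent of 2 h PPARG sites that were lost and percent with no peak in either 48 h library, by quintile of their 2 h score. Right, percent of sites that overlap JunD in DMSO-treated cells for kept sites, sites with a peak in 48 h replicate 1 alone and sites with no 48 h peak, with bars for the Wilson 95% interval and classes under 20 sites left out. Loss falls from 87.2% to 0.982%, and the JunD share of sites with no 48 h peak stays between 13.6% and 13.8% in the first 4 quintiles.

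The JunD difference was larger by the calls of 48 h replicate 1 than by those of 48 h replicate 2. Sites with a peak in 48 h replicate 1 alone overlapped JunD in 36.6%, and the 208 sites with a peak in 48 h replicate 2 alone did so in 12.98%. By quintile, sites of replicate 1 alone had 32.8%, 36.9% and 39.2% in the first 3, against 28.3%, 26.5% and 34.7% at kept sites. The intervals were apart only in the second quintile. In the fourth the shares were 39.95% and 39.97%. In the fifth they were 23.8% of 21 sites and 49.7% of the kept sites. Over all 2 h sites, JunD was at 39.3% of those with any peak in 48 h replicate 1 and at 13.7% of the 2963 without one. For 48 h replicate 2 the shares were 39.7% and 26.5% (n = 6196 without one). Replicate 1 also had the widest peaks. Without that library, the split by replicate 2 alone left a difference of 13.2 percentage points, against 25.5 for the split by replicate 1. The splits were not read at equal list length or score. Sites without a peak had a median 2 h percentile of 34.4 for replicate 1 and 40.7 for replicate 2. The 6196 sites also include the 3364 with a peak in replicate 1 alone.

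The lists of like length give the same order. JunD was at 13.6% of the 2835 peaks that were found at 2 h and missed at 48 h (12.4% to 14.9%), and at 28.7% of the 2739 that were found at 48 h and missed at 2 h (27.1% to 30.5%). Their median scores in 2 h replicate 1 were 219.6 and 192.4. The set with less JunD thus had the higher score. Peaks missing from both lists overlapped JunD in 10.3% of 7231 cases and peaks found in both in 39.5% of 11234 cases.

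Chromatin marks were read at the same sites, which had been classed by PPARG peaks alone. In DMSO-treated cells, H3K27ac peaks covered 46.7% and 54.9% of the kept sites in the 2 libraries. At 24 h of rosiglitazone they covered 72.8% and 71.1%, and at 48 h 76.0% and 70.5%. Both drug times lay above DMSO in every library. At lost sites with no 48 h peak the shares were 34.7% and 42.4% in DMSO, 42.3% and 46.3% at 24 h and 47.3% and 40.6% at 48 h, and the values at both drug times overlapped those of DMSO. H3K27ac peaks covered 49.4 and 67.9 Mb in DMSO, 67.9 and 72.6 Mb at 24 h and 75.5 and 56.2 Mb at 48 h, so their extent varied between libraries. The 4166 JunD sites without PPARG at either time, a reference for enhancers without the receptor, had shares of 34.5% and 40.0% in DMSO and of 48.3% and 43.8% at 48 h.

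Of the kept sites with no H3K27ac site in DMSO, 43.7% had one at 24 h and 45.2% at 48 h. The same shares were 15.97% and 14.9% at lost sites with no 48 h peak and 17.1% and 16.5% at JunD sites without PPARG. The shares at sites with no 48 h peak were thus close to those at JunD sites without a PPARG site. Neither widths nor the handling of PPARG peaks in single libraries was matched. All 8960 JunD sites covered 14.5 Mb, while the median width was 721.5 bp at sites with no 48 h peak and 956 bp at kept sites. Wider sites have more room for overlap, which also bears on the use of these JunD sites for RNAP2 below. Acetylation present in DMSO persisted at 98.5% of the kept sites and at 89.6% of the sites with no 48 h peak.

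RNAP2 was read in the same way. At kept sites it covered 69.9% and 69.3% in DMSO, 78.0% and 76.3% at 24 h and 67.4% and 75.1% at 48 h. At sites with no 48 h peak it covered 52.8% and 56.1% in DMSO, 46.6% and 52.1% at 24 h and 31.6% and 46.2% at 48 h. Values after the drug lay below both DMSO values at these sites. At kept sites the 24 h values lay above DMSO and the 48 h values overlapped it. JunD sites without PPARG also rose at 24 h, from 80.7% and 79.4% to 85.3% and 86.5%, and had 69.0% and 80.3% at 48 h. Of those without RNAP2 in DMSO, 44.8% had it at 24 h, against 30.8% of the kept sites, so a rise at 24 h was not particular to kept sites. RNAP2 replicate 1 at 48 h was lower than replicate 2 in each class, and the peaks of these libraries covered 44.4 and 47.2 Mb, against 48.8 and 48.7 Mb in DMSO. Of the sites with RNAP2 in DMSO, 88.5% of the kept sites and 52.8% of the sites with no 48 h peak still had it at 48 h. JunD sites without PPARG lay between, at 81.9%.

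**Figure D3:**
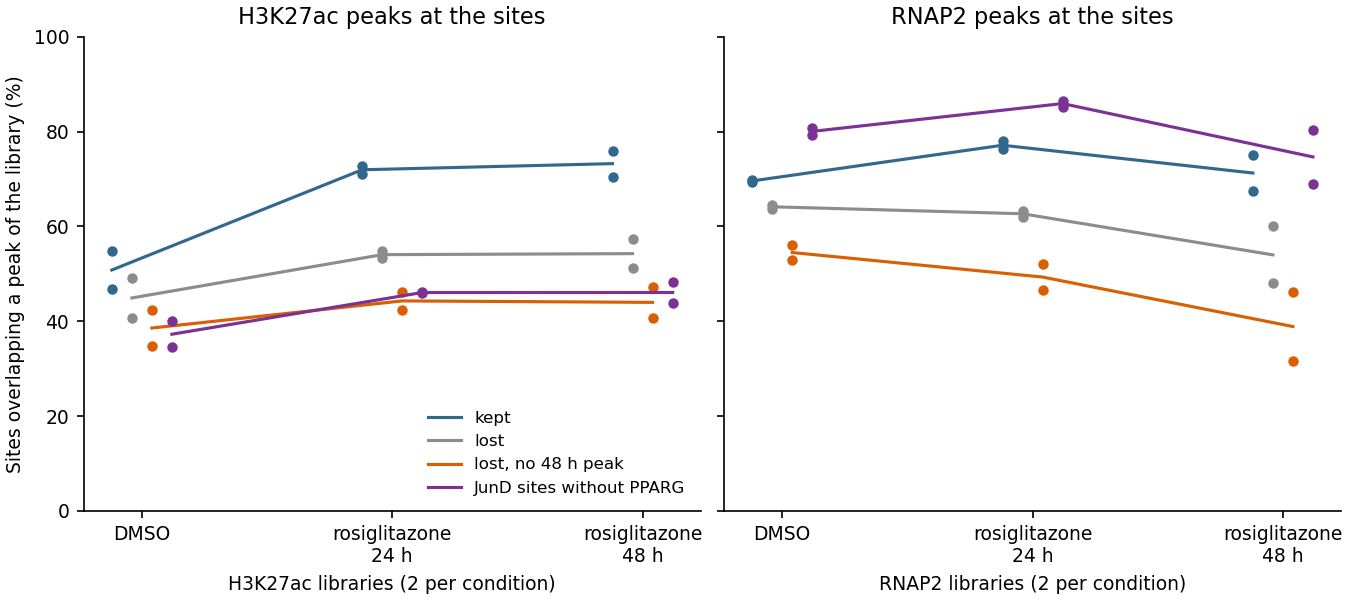
Percent of sites that overlap H3K27ac (left) and RNAP2 (right) peaks in cells given DMSO or rosiglitazone (24 or 48 h), with a point for each mark library and a line through the means. Kept sites gain H3K27ac, from 46.7% and 54.9% to 76.0% and 70.5%, and RNAP2 falls at lost sites with no 48 h peak, from 52.8% and 56.1% to 31.6% and 46.2%.

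The gap between kept sites and sites with no 48 h peak was taken within each mark library, so that both classes were read with the same peaks. Whether the gap depends on how much a library called was not tested. For H3K27ac the gap was 11.99 and 12.5 percentage points in DMSO, 30.5 and 24.8 at 24 h and 28.7 and 29.9 at 48 h. For RNAP2 it was 17.0 and 13.2 in DMSO, 31.4 and 24.2 at 24 h and 35.9 and 28.9 at 48 h. Each drug group lay above DMSO without overlap, with a two-sided p of 0.333 in each of the 4 exact permutation tests (n = 2 each). The gaps at 24 and 48 h overlapped for both marks.

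Part of the gap in DMSO comes with the higher scores of kept sites, and within score quintiles it was near 0 or below it. In the first to the fourth quintile the mean H3K27ac gap in DMSO was −4.73, −7.36, −5.00 and 1.31 points, and at 48 h it was 7.46, 5.71, 11.0 and 18.3 points. For RNAP2 it was −3.36, −6.99, 0.946 and −3.54 points in DMSO and 14.4, 9.19, 18.1 and 23.8 points at 48 h. Among sites of like score, those that went on to have no 48 h peak were thus at least about as often acetylated and occupied by RNAP2 before the drug as kept sites were, and less often after it. The groups did not overlap in any of these quintiles at 24 or 48 h. The fourth quintile holds only 88 sites with no 48 h peak, and its RNAP2 gaps at 48 h were 33.2 and 14.3 points in replicates 1 and 2.

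**Figure D4:**
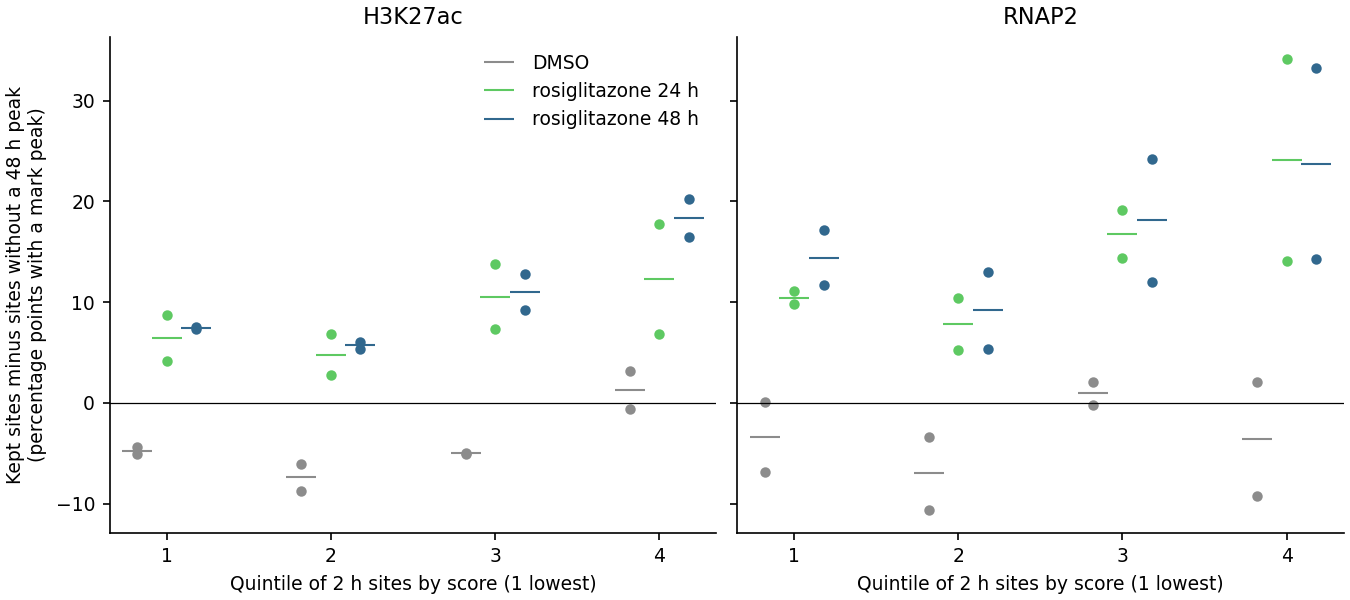
Percent of kept sites with a mark peak minus percent of sites with no 48 h peak, by quintile of the 2 h score, for H3K27ac (left) and RNAP2 (right), with a point for each mark library and a short line for the mean of a group. DMSO libraries lie around or below 0, with means from −7.36 to 1.31 points, and all libraries of rosiglitazone-treated cells lie above 0.

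The marks were also read at the sets from lists of like length. At the 2835 peaks found at 2 h and missed at 48 h, RNAP2 covered 52.0% and 55.5% in DMSO, 45.5% and 52.2% at 24 h and 30.5% and 45.8% at 48 h. At the 2739 peaks found at 48 h and missed at 2 h it covered 61.8% and 56.6% in DMSO, 66.7% and 64.3% at 24 h and 54.6% and 62.5% at 48 h. H3K27ac at the first set was 34.6% and 41.6% in DMSO and 47.5% and 40.3% at 48 h, and at the second set 37.5% and 45.9% in DMSO and 60.6% and 53.3% at 48 h. The second set had more of both marks in every mark library, before the drug as well as after it. The distance between the sets within a library was larger in each drug library than in either DMSO library.

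Seen from the marks, 40.6% of the 5965 H3K27ac sites gained at 24 h and 43.3% of the 5665 gained at 48 h held a 2 h PPARG site. The share was 28.9% and 29.0% at sites present before and after, and 12.3% and 9.09% at sites lost by 24 and by 48 h. Sites present throughout were wider than gained or lost ones, with a median of 2738 bp at 48 h against 1829 and 1736.5 bp, which alone gives more room for overlap. Gained and lost H3K27ac sites, alike in width, thus differed in PPARG, and gained sites held it more often. For RNAP2 the difference was smaller at 24 h, where 22.2% of the 5047 sites gained and 16.8% of the 6412 sites lost held a 2 h PPARG site. No such difference was seen for RNAP2 at 48 h, with 20.3% of the 3223 sites gained and 21.4% of the 7921 sites lost. By class, RNAP2 sites lost at 48 h held a PPARG site with no 48 h peak in 7.83% of cases and a kept site in 7.35%, and RNAP2 sites gained did so in 1.52% and 14.7%.

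In the lists as deposited, the site numbers of PPARG and LXRB, another nuclear receptor, changed in opposite directions over the same interval. The LXRB libraries held 7583 and 4555 peaks at 2 h and 11100 and 14788 at 48 h. LXRB was not read at equal numbers of peaks, so a change in binding cannot be told from a change in list length. LXRB in cells given GW3965 had 3881 sites at 2 h and 9218 at 48 h, of which 13.1% of the former were lost and 63.2% of the latter were new. LXRB sites at 48 h were found at 45.2% of the kept PPARG sites and at 17.4% of those with no 48 h peak. The agonist differs, so no test was made between the receptors.

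RNA-seq gave the levels of the receptor, its partners and its targets, in CPM (counts scaled to the size of the library), with total counts between 30834003 and 42120223 per library. Calls on rosiglitazone against DMSO come from the quasi-likelihood test of edgeR and need both a change of 2-fold or more and an adjusted p below 0.01. Of the 21781 genes tested at 24 h, 2.18% were called, 0.780% as higher and 1.40% as lower. Of the 22470 tested at 48 h, 5.86% were called, 1.99% as higher and 3.87% as lower. A response that differed between the times was called for 2.45% of 23140 genes, being larger at 48 h for 1.38% (320 genes) and smaller for 1.06% (246 genes). Without rosiglitazone replicate 1 at 48 h these counts were 657 and 563, and with scaling by library size alone they were 183 and 442.

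Of the 6 receptors and partners, 5 were tested, none was called at 24 h and 1 at 48 h. PPARG RNA was 45.5, 41.7, 46.4 and 47.4 CPM with DMSO at 24 h and 30.4, 32.3, 30.6 and 35.1 CPM with rosiglitazone. At 48 h it was 85.2, 76.1, 81.8 and 80.5 CPM with DMSO and 50.3, 55.1, 67.5 and 61.1 CPM with rosiglitazone. All drug libraries lay below all DMSO libraries at both times. The log2 fold changes were −0.50 (SE 0.07, adjusted p = 3.84e-05) and −0.47 (SE 0.08, adjusted p = 7.36e-05), which is under the fold limit of a call, and the difference between the times was 0.04 (SE 0.11, adjusted p = 0.872). PPARG RNA was nonetheless higher at 48 h than at 24 h in each drug library, with means of 58.5 and 32.1 CPM, as it was with DMSO, with 80.9 and 45.2 CPM, and RNA at 2 h was not measured.

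RXRA, the partner of PPARG, showed log2 fold changes of 0.10 (adjusted p = 0.610) and 0.06 (adjusted p = 0.583) at 24 and 48 h. PPARD, a related receptor that binds the same kind of element, was the member called. Its RNA was 78.4, 71.1, 72.4 and 75.9 CPM with DMSO at 48 h and 223.3, 289.9, 343.9 and 283.9 CPM with rosiglitazone. The log2 fold change was 0.94 (SE 0.09) at 24 h and 1.94 (SE 0.10, adjusted p = 1.99e-11) at 48 h. The response was larger at 48 h by 1.02 on the log2 scale (SE 0.13, adjusted p = 1.18e-05). Whether the PPARG antibody binds PPARD protein was not tested.

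Of the 12 coregulators, 11 were tested, none was called at 24 h and 1 was called higher at 48 h. PPARGC1B, a coactivator of mitochondrial and oxidative genes, had a log2 fold change of 0.99 (SE 0.08) at 24 h and 1.16 (SE 0.14, adjusted p = 2.33e-06) at 48 h. The call at 48 h was lost with scaling by library size alone, at 0.97, and replicate 4 lay apart from the other drug libraries. The median of the list was 0.06 and 0.21, beside −0.0189 and −0.0115 over all genes. Most coregulators thus changed little at the RNA level.

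Of the 10 AP1 subunits, 9 were tested, with 1 called higher at each time. JUND itself was 256.1, 242.0, 267.8 and 284.2 CPM with DMSO at 48 h and 338.4, 390.7, 291.7 and 275.4 CPM with rosiglitazone, and these groups overlapped (log2 fold change 0.30, SE 0.10, adjusted p = 0.0229). At 24 h the change was 0.13 (SE 0.11, adjusted p = 0.468). FOS, an early response subunit, was called higher at 24 h with 1.11 (SE 0.08, adjusted p = 7.28e-09), and FOSL1 at 48 h with 1.14 (SE 0.08, adjusted p = 1.61e-09), a call lost with library size alone, at 0.95. The FOSL1 response grew by 0.66 from 24 to 48 h (SE 0.11, adjusted p = 0.000378). That of JUN grew by 0.62 (SE 0.12, adjusted p = 0.00115), with a log2 fold change of 0.91 at 48 h, under the fold limit of a call. The median of the list was 0.32 at 24 h and 0.32 at 48 h, beside −0.0189 and −0.0115 over all genes. JunD binding after the drug was not measured.

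**Figure D5:**
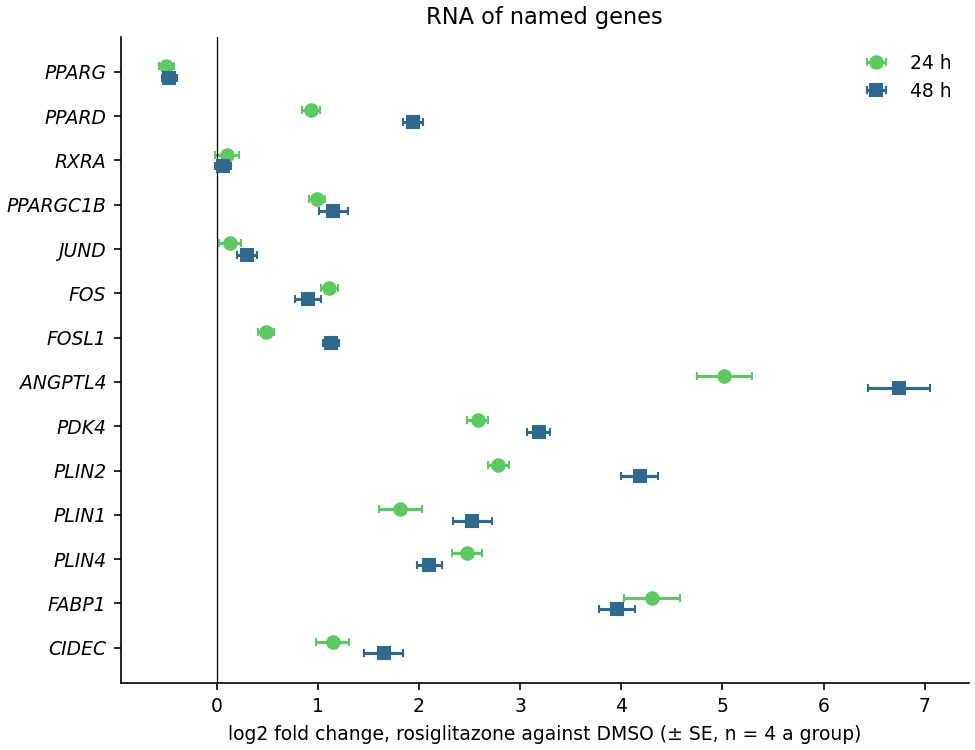
Log2 fold change of rosiglitazone against DMSO for the named genes at 24 h (circles) and 48 h (squares), with bars for the standard error and 4 libraries per group. PPARG lies below 0 at both times (−0.50 and −0.47), while ANGPTL4, PDK4, PLIN2 and other PPAR targets lie above 1.

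Targets of PPARs stayed high at 48 h. Of the 22 target genes, 9 of the 19 tested were called higher at 24 h and 8 of the 18 tested at 48 h, and none was called lower. The median log2 fold change was 0.62 at 24 h and 0.66 at 48 h. ANGPTL4, which inhibits lipoprotein lipase, rose by 5.02 (SE 0.27) and 6.75 (SE 0.31) on the log2 scale. PDK4, a kinase that restrains pyruvate dehydrogenase, rose by 2.58 (SE 0.10) and 3.18 (SE 0.11). FABP1, a fatty acid binding protein, rose by 4.30 and 3.96.

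The 3 lipid droplet coat proteins on the list, PLIN1, PLIN2 and PLIN4, were called higher at both times. PLIN2 was 4.89, 4.99, 4.30 and 4.46 CPM with DMSO at 24 h and 30.4, 33.2, 30.8 and 34.0 CPM with rosiglitazone. At 48 h it was 7.42, 9.52, 8.28 and 9.27 CPM with DMSO and 99.4, 136.5, 224.7 and 164.5 CPM with rosiglitazone. It was the one target whose response differed between the times, being larger at 48 h by 1.41 (SE 0.22, adjusted p = 0.000105). PLIN1 rose by 1.82 and 2.53, PLIN4 by 2.48 and 2.10, and CIDEC, which enlarges lipid droplets, by 1.15 and 1.65.

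FABP4, an adipocyte target, was at 0 in all 8 DMSO libraries. After 24 h of rosiglitazone it was 0.9996, 0.486, 0.907 and 0.969 CPM, and after 48 h it ranged from 0.0260 to 0.190 CPM. These levels were lower at 48 h in every library, and the gene did not pass the filter on low counts at that time. LPL was at 0 in each of these libraries.

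Markers of colon epithelium were all detected, over a wide range, from 9390 CPM for KRT8, 7151 CPM for KRT18 and 338 CPM for EPCAM to 15.4 CPM for CEACAM5, 14.9 CPM for CDX2 and 3.40 CPM for CDX1 as means in DMSO at 24 h. All 10 markers of colon epithelium were tested, and KRT20 and CEACAM5 were called higher at both times, with log2 fold changes of 1.38 and 1.75 and of 1.25 and 1.68. VIL1, an actin-bundling protein of microvilli, fell by 1.004 on the log2 scale, and CDX1, an intestinal transcription factor, fell by 1.03 at 48 h. Of the 9 markers of fibroblasts, leukocytes and endothelium, 3 passed the filter and none was called. They were CD68 at 10.1 CPM, COL1A1 at 4.39 CPM and VWF at 0.148 CPM as means in DMSO at 24 h. CD68 was higher with rosiglitazone at 48 h by 0.55 on the log2 scale (edgeR adjusted p = 0.00025), under the fold limit of a call. COL1A2, DCN and CD3E were at 0 in each library.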

How the data were processed

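ChIP-seq of PPARG, JunD, H3K27ac, RNAP2 and LXR and RNA-seq were analysed. Per the methods and the submitters' processing notes, the authors aligned single-end ChIP-seq reads to hg19 with Bowtie, ran MACS on every replicate with an input control, and deposited a score per peak that is minus 10 times the log10 of p. TopHat and Cufflinks are also named there, and no source used here gives versions. The authors deposited whole-number counts per Ensembl gene from paired-end Nextera libraries, without normalization.

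Groups came from the labels. Peaks were joined with pandas 2.3.3 and numpy 2.4.6 in Python 3.11.15. Sites needed an overlap of 1 bp or more between replicates. H3K27ac, RNAP2 and JunD sites were built in the same way, and shares per mark library use the peaks of that library alone. Intervals are Wilson 95% intervals and cover counting error only, and sites are not replicates. Wilson intervals used scipy 1.17.1, exact permutation tests over libraries used numpy, and plots used matplotlib 3.10.9. ChIP-seq depth is unknown here.

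Counts were filtered with filterByExpr, scaled by TMM and tested with edgeR 4.0.16 in R 4.3.3 (quasi-likelihood test, Benjamini-Hochberg adjustment), with all 16 libraries of a time together and all 32 libraries for the interaction. On simulated data with 200 changed genes, edgeR recovered 99.5% of them at 24 h and at 48 h, and 95.5% in the interaction. DESeq2 1.42.0 was an alternative.

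The members, gene lists and rules were chosen with earlier results of these data known. Named sites were the 4 of highest score among kept sites, lost sites with no 48 h peak and new sites with no 2 h peak, and the 4 kept sites with the steepest fall and rise in percentile, of which not all are described. Named genes were PPARG, RXRA, JUND and called members of the lists, and FABP4 at 48 h, LPL, JUN and the cell type markers are given beside them. The lists of like length, the split by single 48 h libraries and the gaps within mark libraries were added after other values had been seen. HILPDA and PECAM1 were not matched in the count table. Genes, sequences and motifs at sites were not analysed here. A member of the target list that the rule names is left out of the text and plots.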

Additional observations from a re-analysis of the deposited data

Results flagged for a closer look

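Among the named genes, 3 had a response to rosiglitazone that differed between 24 and 48 h in the interaction test of edgeR over 32 libraries. The log2 fold change at 48 h minus that at 24 h was 1.02 for PPARD (adjusted p = 1.18e-05), 0.66 for FOSL1 (adjusted p = 0.000378) and 1.41 for PLIN2 (adjusted p = 0.000105), and in each case all 4 drug libraries lay above all 4 DMSO libraries at both times.

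For PPARGC1B at 48 h of rosiglitazone, replicate 4 was at 11.9 CPM while the other replicates were at 16.6, 16.6 and 16.7 CPM. The gap was 0.974 of the range of the group, above Dixon's 95% critical value for 4 samples. This was 1 of 62 groups of 4 libraries examined, and chance gives such a sample in about 1 of 20 groups.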

How the results depend on the processing

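Numbers of peaks set most shares. With scores of at least 200 there were 8703 sites at 2 h and 4911 at 48 h, 45.7% lost and 5.64% new, and JunD was at 40.5% of the 2 h sites, 43.4% of the 48 h sites, 45.0% of the kept and 35.2% of the lost sites. H3K27ac at 24 h was then at 75.4% of the kept and 60.7% of the lost sites, and RNAP2 at 24 h at 77.5% and 65.8%. With equal numbers of peaks there were 7157 sites at 2 h, 20.1% lost and 21.0% new, with JunD at 41.9%, 43.0%, 45.2% and 28.7% in the same order, H3K27ac at 74.5% and 60.3% and RNAP2 at 77.5% and 60.0%. With windows of 200 bp, 50.9% were lost and 11.1% new, with JunD at 33.2%, 37.0%, 38.2% and 28.3%, H3K27ac at 63.6% and 53.5% and RNAP2 at 68.9% and 58.1%. With sites of either replicate there were 25382 and 15832 sites, 42.5% lost and 9.71% new, with JunD at 25.8%, 35.3%, 36.5% and 11.3%, H3K27ac at 61.3% and 39.3% and RNAP2 at 67.4% and 36.4%. Shifted by 100 kb, sites overlapped JunD in 1.64%, 1.94%, 1.81% and 1.44%, H3K27ac in 6.32% and 6.54% and RNAP2 in 6.11% and 5.66%.

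With single libraries left out, the lost share ranged from 20.8% to 64.6%, the new share from 1.55% to 27.5%, and the number of sites from 14249 to 24039 at 2 h and from 8317 to 15378 at 48 h. JunD ranged from 26.4% to 41.5% at 2 h, 36.1% to 46.4% at 48 h, 39.3% to 47.7% at kept and 13.7% to 33.8% at lost sites. H3K27ac at 24 h ranged from 65.4% to 67.8% at kept and 39.7% to 51.2% at lost sites, and RNAP2 at 24 h from 70.5% to 71.7% and from 39.5% to 56.1%. Kept sites overlapped JunD, H3K27ac and RNAP2 more often than lost sites under each of these settings except the shift, where H3K27ac was at 6.32% and 6.54%. No paired analysis was possible because the PPARG results come from no model and 2 libraries per time share only a number.

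For RNA, a fold limit of 1.5 gave 395 higher and 682 lower genes at 24 h and 1076 and 1662 at 48 h. DESeq2 gave 519 genes with a larger and 507 with a smaller response at 48 h, library size alone gave 183 and 442, and the DMSO and rosiglitazone libraries alone gave 225 and 142. Library size alone called 134 genes higher and 403 lower at 24 h and 301 and 1265 at 48 h. Leaving out single libraries gave 156 to 173 higher and 254 to 302 lower genes at 24 h, 398 to 499 and 738 to 1010 at 48 h, and 179 to 657 larger and 158 to 563 smaller responses, with the most, 657 and 563, without replicate 1 of rosiglitazone at 48 h. The replicate numbers did not pair the libraries, with correlations of same-numbered libraries from −0.0459 to 0.0792 and 2 of 8 highest with their own number. With the replicate number as a block, 167 genes were higher and 292 lower at 24 h, 441 and 856 at 48 h, and 286 and 223 responses were larger and smaller. No named gene changed direction. Over the named genes 16 calls were gained under some setting, and PPARGC1B and FOSL1 at 48 h lost their calls with library size alone (0.97 and 0.95).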
